A study of Schmidtea mediterranea with 48 samples.

Results

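The 90 contigs described here had lower read counts in both the heads and the tails of *nr4A(RNAi)* planarians than in those of control animals. *nr4A* encodes a nuclear receptor transcription factor of the flatworm *Schmidtea mediterranea*. Asexual CIW4 animals received dsRNA of *nr4A*, and control animals dsRNA of *unc-22*, a nematode (*C. elegans*) gene. Heads and tails were cut off and sequenced after 2, 3, 4 and 5 weeks, with 3 libraries for each RNAi condition, week and tissue and 6 animals pooled per library. The strain was the same in both conditions, animals were starved before experiments, and the design had no untreated animals. RNAi acted in the whole animal, so the values do not separate the cells that express *nr4A* from other cells.

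A contig is an assembled transcript of the dd_Smed_v4 transcriptome, here called by its number (dd_2972). The members were chosen by their counts in these same libraries. For each contig, D is the mean over the 4 weeks of the *nr4A(RNAi)* mean minus the control mean of log2(CPM + 0.5), where CPM is a contig's count scaled to a library of 1000000 contig reads. Of 26401 contigs, 11860 had a mean of at least 5 CPM in the controls of both tissues, and the 100 of these with the lowest larger value of D head and D tail were taken. A fixed list of 21 contigs was left out, which removed 10 of the 100, among them *nr4A*. The level differences between *nr4A(RNAi)* and control animals are therefore a description of how the members were picked and were not tested. Tests were run on the change of the difference over the weeks, that of the control levels, and the difference of the slope between tissues. The rule did not use these contrasts. They rest on the same libraries, so a member picked through 1 week can carry that week's values into these tests.

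Planarian muscle does more than contract. It secretes most of the extracellular matrix of the animal, and it expresses the position control genes that tell other cells where along the body they lie. In the heads and tails, body wall muscle fibers, neurons, epidermis and their precursors are sampled together. In such bulk samples, fewer cells of a type and less RNA per cell cannot be told apart.

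The members dd_2972 and dd_508 were cloned by the study, and the primers that bound the cloned stretches are the only member sequences held in the sources used here. They are shown because neither contig has an agreed gene name, so the primers tie the numbers to transcripts. Forward and reverse primers are written 5′ to 3′.
dd_2972 forward: caacaacagaagaacaaacaacc
dd_2972 reverse: cagtatttcgtacgctctttgca
dd_508 forward: caggaagaaatactcgtgcatca
dd_508 reverse: accagtgcacgaaggctc

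Of the 90 members, 18 carried a name from the study, taken from the best BLAST match or from the gene label it gives beside the contig number, and 72 had a number only. Best matches name the closest known protein and not a shown function, and the roles below are those of the vertebrate proteins unless said otherwise. For dd_508 the annotation names an alpha tubulin (TUBA3D), while the list of cloned genes gives it no name, so the number is used here.

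The libraries held between 13800452 and 27490960 contig reads for heads, and for tails between 13395084 and 42917781. *nr4A* itself had 12.03 to 20.8 CPM in *nr4A(RNAi)* heads against 24.8 to 28.8 in control heads, and 10.6 to 18.2 CPM in *nr4A(RNAi)* tails against 18.5 to 25.9 in control tails, with no overlap in either tissue. The head pieces held the head marker *sfrp1* at a control median of 98.4 CPM, against 2.07 in control tails, and the tail marker *wnt11-2* at 0.0465 CPM, against 40.5 in control tails. Another tail marker, *wntP-1*, was closer between the tissues, with control medians of 1.84 CPM in heads and 2.75 CPM in tails. In 5 *nr4A(RNAi)* libraries many contigs moved at once. They were the heads of week 2 replicate 2, week 4 replicate 2 and week 5 replicates 1 and 2, and the tail of week 2 replicate 1. The SD over all 11860 contigs of the difference from the control mean was 0.43 to 0.77 in these 4 heads and 0.70 in the tail library, against 0.12 to 0.25 in the 8 other *nr4A(RNAi)* heads and 0.14 to 0.24 in the 11 other *nr4A(RNAi)* tails. Among the controls it reached 0.26, in tail replicate 1 of week 3, and was at most 0.15 in the other control libraries. *nr4A* had 12.03 to 17.1 CPM in these 4 heads against 17.3 to 20.8 CPM in the other *nr4A(RNAi)* heads, and 10.6 CPM in the tail library against 12.3 to 18.2 CPM in the other *nr4A(RNAi)* tails. The part of this lower *nr4A* level in the members' values was not tested. Results that rest on these 5 libraries are given with and without them.

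The median member had D = -0.55 in the head and D = -0.35 in the tail, while the median of all 11860 contigs was 0.04 in the head and 0.01 in the tail. D was lower in the head in 61 members and lower in the tail in 29, while without the 5 libraries it was lower in the head in 40 and lower in the tail in 50. D reached -1 or less in 16 members in the head and in 2 in the tail, and in both tissues in 2 members, dd_13610 and dd_2972. Without the 5 libraries 2 members reached it in the head, dd_2972 and dd_954, and 1 in the tail, dd_2972. Without the 5 libraries the median member had D = -0.36 for heads and -0.30 for tails, and 47 of the 90 members still lay at or below the limit of the rule in both tissues. The 43 other members then had a median D of -0.07 in the head and -0.19 in the tail. Both sets are described apart below, a division made after their values were seen.

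**Figure D1:**
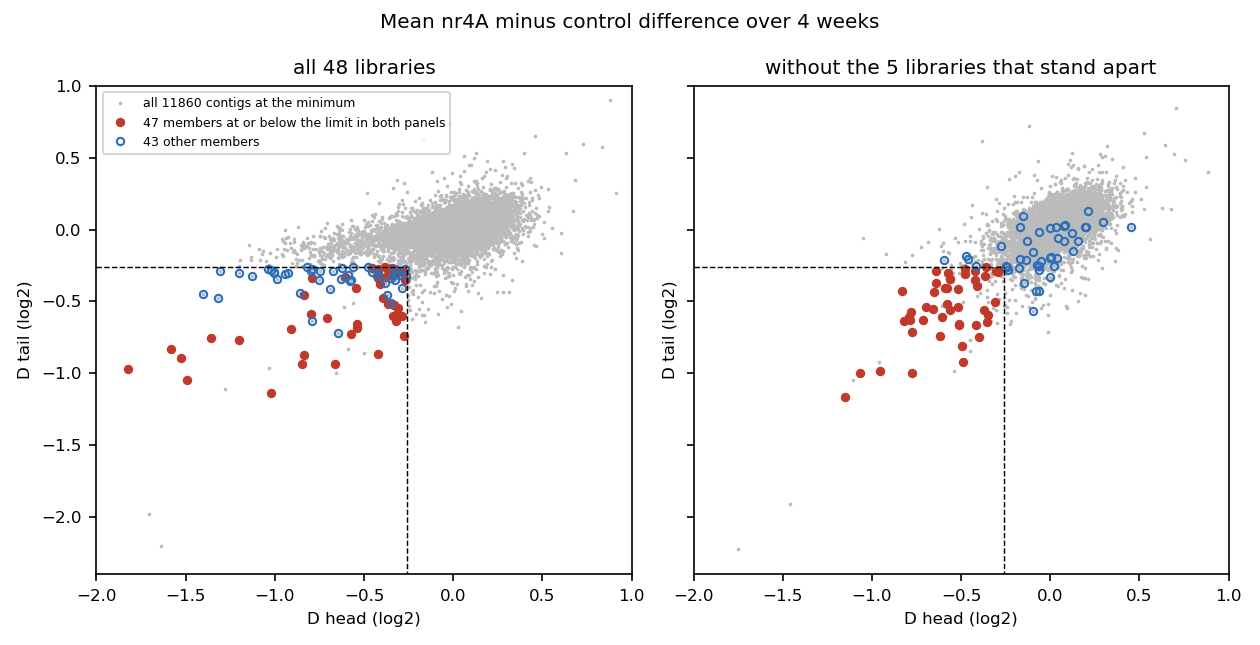
D head (horizontal, log2) against D tail (vertical, log2) for all 11860 contigs (grey) and the 90 members, from all 48 libraries (left) and without the 5 *nr4A(RNAi)* libraries that stand apart (right). Dashed lines mark the limit of the rule. The 47 members in red lie in the lower left corner of both panels, and the 43 in open blue do so in the left panel only.

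At the limit of the rule, the last members inside were dd_2581, dd_17809 and dd_14301, whose larger D was -0.263, -0.263 and -0.260. The first contigs outside were dd_3708, dd_12565 and dd_19204 with -0.257, -0.256 and -0.255. The border therefore fell within a dense run of values.

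Both tissues and all weeks were separate in dd_2972, a contig with no gene name. At week 2 its heads had 45.5, 50.9 and 40.8 CPM under *nr4A* RNAi, against 62.5, 62.0 and 60.0 CPM under control RNAi. At week 5 the heads had 27.4, 25.6 and 19.5 CPM under *nr4A* RNAi, against 65.4, 58.3 and 64.4 CPM under control RNAi. The conditions did not overlap at week 2 or week 5, nor in the weeks between. In the tail the week 2 values were 39.5, 31.1 and 33.7 CPM in *nr4A(RNAi)* animals against 51.8, 47.0 and 47.4 CPM in controls, and the week 5 values 18.3, 17.3 and 17.8 CPM in *nr4A(RNAi)* animals against 57.9, 56.9 and 48.1 CPM in controls. Again no *nr4A(RNAi)* library reached any control library of its week. D was -1.02 for heads and -1.14 for tails, and leaving out the 5 libraries gave -1.15 and -1.16.

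Separation of every *nr4A(RNAi)* library from every control library of the same week, in all 4 weeks, was found in 25 members in the head and 18 in the tail. Over all 11860 contigs this held for 0.75% in the head and 0.523% in the tail, but the members were picked on these differences. It held in both tissues for 10 members, against 0.152% of all contigs. The 10 were dd_2972, dd_1837, dd_10318, dd_5509, dd_508, dd_18940, dd_1226, dd_9875, dd_364 and dd_2679.

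Among these, dd_508 was one of the most abundant members. Its heads had 615, 626 and 503 CPM at week 5 under *nr4A* RNAi, against 993, 933 and 1046 CPM in the controls. Its tails had 314, 309 and 263 CPM under *nr4A* RNAi, against 583, 600 and 516 CPM in the controls. D was -0.57 in the head and -0.72 in the tail. Still more abundant was the unnamed dd_364, with 1868 to 2723 CPM in *nr4A(RNAi)* heads and 2234 to 3635 CPM in control heads over all weeks, and a D of -0.28 in the head and -0.29 in the tail. The ranges over all weeks overlap, although no week overlaps by itself.

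The unnamed dd_1837 was lower in each week. Its weekly differences ran from -1.17 to -0.73 in heads, and in tails from -1.10 to -0.81. At week 2 the heads had 41.8, 37.2 and 40.9 CPM in *nr4A(RNAi)* animals, against 61.7, 66.0 and 78.3 CPM in controls. At week 2 the tails had 150, 100 and 96.5 CPM in *nr4A(RNAi)* animals, against 185, 225 and 187 CPM in controls. Also without a name, dd_954 had D = -0.84 in the head and -0.88 in the tail, with week 2 tail differences near 0 (-0.07) and -1.13, -1.25 and -1.06 in the tail in the following weeks.

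**Figure D2:**
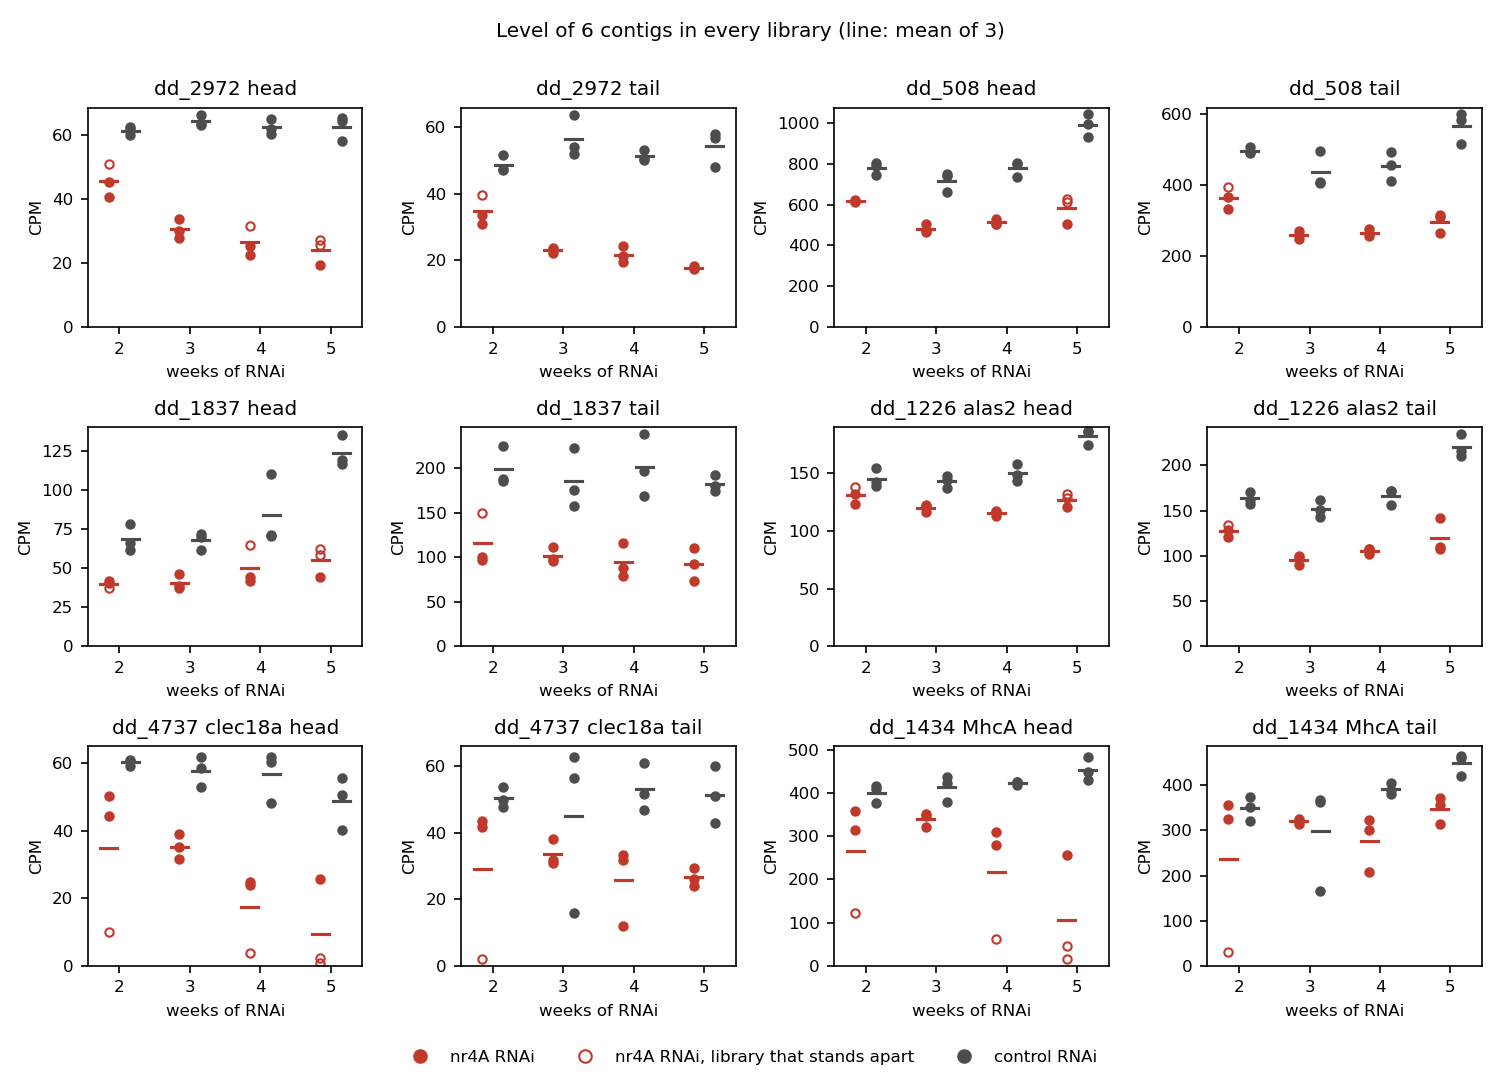
CPM (vertical, from 0) by weeks of RNAi (horizontal) for 6 members in head and tail. Each point is 1 library, red for *nr4A* RNAi, left of grey for control RNAi; lines are means of 3 and open red points the 5 libraries that stand apart. In dd_2972, dd_508, dd_1837 and dd_1226 every red point lies below the grey points of its week, while in dd_4737 and dd_1434 the open points lie far below the filled red points.

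Several named members encode proteins of the contractile apparatus or of its anchoring. dd_10318 (*ldb3*), whose vertebrate match holds the Z-disc together, had D = -0.71 in the head and -0.62 in the tail. Its heads ranged from 11.5 through a median of 17.1 to 22.7 CPM in *nr4A(RNAi)* animals, against 24.6, 27.2 and 33.3 CPM in controls. The head ranges did not overlap even over all weeks, and in the tail *nr4A(RNAi)* libraries had 10.5 to 18.7 CPM against 17.1 to 22.0 CPM in controls.

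dd_7974 (*tnni2*), named after troponin I, the inhibitory subunit that keeps actin and myosin apart at rest, had D = -0.31 in the head and -0.54 in the tail. Its tails ranged from 33.5 through 38.0 to 45.4 CPM in *nr4A(RNAi)* animals, against 45.1, 54.9 and 70.5 CPM in controls. In the tail no week overlapped. dd_5037, matched to a planarian four-and-a-half LIM domain protein (*fhl2*), a family of adaptor proteins of muscle, had D = -0.33 in the head and -0.53 in the tail. Its tails had 23.5 to 34.2 CPM in *nr4A(RNAi)* animals and 36.8 to 45.2 CPM in controls, with no overlap.

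The calcium pump dd_1772 (ATP2A2, the SERCA pump that returns calcium to the sarcoplasmic reticulum after contraction) was the most abundant named member. Its heads ranged from 523 through 815 to 1213 CPM in *nr4A(RNAi)* animals, against 1293, 1379 and 1497 CPM in controls, with no overlap. Its tails ranged from 609 through 801 to 1087 CPM in *nr4A(RNAi)* animals, against 842, 1018 and 1247 CPM in controls. The tail ranges overlapped, and D was -0.79 in the head and -0.34 in the tail.

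A myosin heavy chain, dd_1434 (MhcA, a motor of the thick filament), behaved differently. At week 3, when no head library stood apart, its heads averaged 339 ± 16.5 CPM in *nr4A(RNAi)* animals and 413 ± 30.2 CPM in controls (SD, n = 3 each). At week 5 the heads had 15.8, 45.3 and 256 CPM under *nr4A* RNAi, against 448, 430 and 484 CPM in controls. The week 2 tails had 29.9, 324 and 357 CPM under *nr4A* RNAi, against 352, 373 and 321 CPM in controls, so the lowest library was the one that stands apart and the other 2 overlapped the controls. D was -1.32 in the head and -0.48 in the tail with all libraries, and -0.47 and -0.18 without the 5. The control tail of week 3 replicate 1 was low as well, with 166 CPM against 364 and 367 CPM in its 2 companions.

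dd_1434 is also one of 6 contigs used as muscle markers. The sum of the 6 was 5080 to 6318 CPM in the 4 heads that stand apart, 5550 to 7389 CPM in the other *nr4A(RNAi)* heads and at least 7363 CPM in control heads. In the tail it was 6518 CPM in the library that stands apart, 6134 to 7703 CPM in the other *nr4A(RNAi)* tails and 6775 to 8950 CPM in control tails. The markers did not move alike. In the 4 heads dd_1434 differed from the control mean by -4.80 to -1.70 on the log2 scale, the myosin heavy chain dd_432 by -1.18 to -0.44 and the collagen dd_702 by -0.82 to -0.32. The tropomyosin dd_405 differed by -0.07 to 0.11, the myosin light chain dd_223 by 0.14 to 0.25 and the MyoD-like dd_12634 by 0.03 to 0.34. The sum of 3 neuronal markers was 639 to 729 CPM in these 4 heads, 596 to 725 CPM in the other *nr4A(RNAi)* heads and 503 to 644 CPM in control heads. Most of this sum was dd_1566 (prohormone convertase 2). It differed from the control mean by 0.05 to 0.44 in these 4 heads and by -0.02 to 0.43 in the others. The prohormone dd_1538 differed by 0.37 to 1.42 in these 4 heads and by -0.06 to 0.50 in the others. For dd_3524 these ranges were 0.29 to 1.085 and -0.21 to 0.37. The sum of 2 markers of ciliated cells was 489 to 756 CPM in these 4 heads, 756 to 1034 CPM in the other *nr4A(RNAi)* heads and 673 to 1002 CPM in control heads. Most of this sum was dd_3670 (DNAHb-1), with a control head median of 844 CPM against 15.9 CPM for the foxJ1-like dd_14635. The 2 went opposite ways in these 4 heads. dd_3670 differed from the control mean by -0.64 to -0.25 on the log2 scale, and dd_14635 by 0.07 to 0.48. The epidermal lineage marker *agat-1* had 395 to 510 CPM in these 4 heads, 341 to 465 CPM in the other *nr4A(RNAi)* heads and 441 to 534 CPM in control heads. It was below the control mean in all 8 of the other *nr4A(RNAi)* heads, by -0.39 to -0.14 on the log2 scale. No muscle, neuronal, epidermal or ciliated marker was at 0 in any library. The part of cell composition in the members' values was not tested.

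Both enzymes that open heme synthesis were members. dd_1226 (*alas2*) matches aminolevulinate synthase, which makes the first precursor, and dd_6364 (*alad*) matches the dehydratase that joins its molecules. In planarians the same pathway also feeds a porphyrin body pigment. At week 5 dd_1226 had 128, 131 and 120 CPM in *nr4A(RNAi)* heads, against 174, 185 and 186 CPM in control heads, and 141, 108 and 110 CPM in *nr4A(RNAi)* tails, against 211, 235 and 216 CPM in control tails. dd_6364 at week 5 had 30.4, 34.1 and 25.1 CPM in *nr4A(RNAi)* heads, against 46.4, 44.0 and 45.0 CPM in control heads, and 33.2, 41.0 and 28.4 CPM in *nr4A(RNAi)* tails, against 77.2, 79.5 and 75.4 CPM in control tails. Neither contig overlapped between conditions at week 5. Both had a lower D in the tail, -0.64 against -0.32 in the head for dd_1226 and -0.87 against -0.42 in the head for dd_6364.

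The members named for the extracellular matrix and its enzymes varied in how firmly they were lower. dd_11681 (*colgalt2*), which adds galactose to collagen, had D = -0.54 in the head and -0.68 in the tail, with 10.7 to 17.7 CPM in *nr4A(RNAi)* tails and 19.4 to 26.4 CPM in control tails. dd_9030 (*col18a1*, a collagen of basement membranes) had D = -0.27 for heads and -0.74 for tails, and its head ranges of 13.6 to 27.3 CPM in *nr4A(RNAi)* animals and 20.2 to 25.5 CPM in controls overlapped. Both kept these signs without the 5 libraries, dd_9030 then at -0.49 in the head.

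The tenascin matches dd_6585 (*tnxb*) and dd_6736 (TNC), large glycoproteins of the matrix, had D = -0.92 and -0.46 in heads, and -0.30 and -0.29 in tails. Without the 5 libraries their head values were -0.60 and -0.17 and their tail values -0.21 and -0.20. The secreted peptidase inhibitor match dd_5321 (*pi16*) had D = -0.59 for heads and -0.32 for tails, and its heads ranged from 55.8 to 144 CPM in *nr4A(RNAi)* animals against 135 to 177 CPM in controls. It did not overlap in any week in the head and overlapped in 2 weeks in the tail. At week 3, when no *nr4A(RNAi)* library stood apart, its log2 difference fitted by edgeR was -0.37 in the head and -0.25 in the tail. The D of dd_5321 without the 5 libraries is not listed here.

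The remaining named members share no role. dd_18940 (*znf362*, a zinc finger protein) had 5.96 to 9.79 CPM in *nr4A(RNAi)* heads and 12.3 to 17.2 CPM in control heads, with no overlap. dd_12790 (*nmbr*, named after a receptor for the peptide neuromedin B) had D = -0.41 in the head and -0.38 in the tail. dd_4737 (*clec18a*, matched to a secreted lectin) sums 2 contig identifiers of the same number, and its name belongs to only one of them.

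dd_4737 had 50.2, 9.93 and 44.3 CPM in *nr4A(RNAi)* heads at week 2, against 59.1, 61.0 and 60.5 CPM in control heads. At week 5 it had 0.779, 2.19 and 25.6 CPM in *nr4A(RNAi)* heads, against 55.6, 40.3 and 50.5 CPM in control heads. The lowest heads of weeks 2, 4 and 5 were libraries that stand apart, and the other *nr4A(RNAi)* heads were also below the controls in every week. D was -1.82 in the head and -0.97 in the tail with all libraries, and -0.79 and -0.63 without the 5.

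dd_2265 (*hsp90b1*, matched to a chaperone of the endoplasmic reticulum) had D = -0.99 for heads and -0.34 for tails (-0.46 and -0.21 without the 5 libraries). dd_15124 (SETMAR, matched to a fusion of a histone methyltransferase and a transposase) had D = -0.42 in the head and -0.30 in the tail. Without the 5 libraries its head value was 0.13, the opposite sign.

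The 10 members with the lowest larger D also hold 8 unnamed contigs besides dd_2972: dd_13610, dd_11543, dd_1837, dd_954, dd_8418, dd_2056, dd_10258 and dd_7106. dd_13610 had D = -1.49 for heads and -1.05 for tails (-0.40 and -0.75 without the 5 libraries). At week 5 it had 0.501, 2.09 and 28.3 CPM in *nr4A(RNAi)* heads, against 42.0, 31.1 and 37.9 CPM in control heads. For dd_11543, dd_8418, dd_2056 and dd_10258, D ran from -1.58 to -1.20 in heads and from -0.90 to -0.75 in tails. Without the 5 libraries it was -0.79, -0.66, -0.58 and -0.78 in heads, and -0.61 to -0.52 in tails. dd_7106 had -0.91 in the head and -0.69 in the tail.

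**Figure D3:**
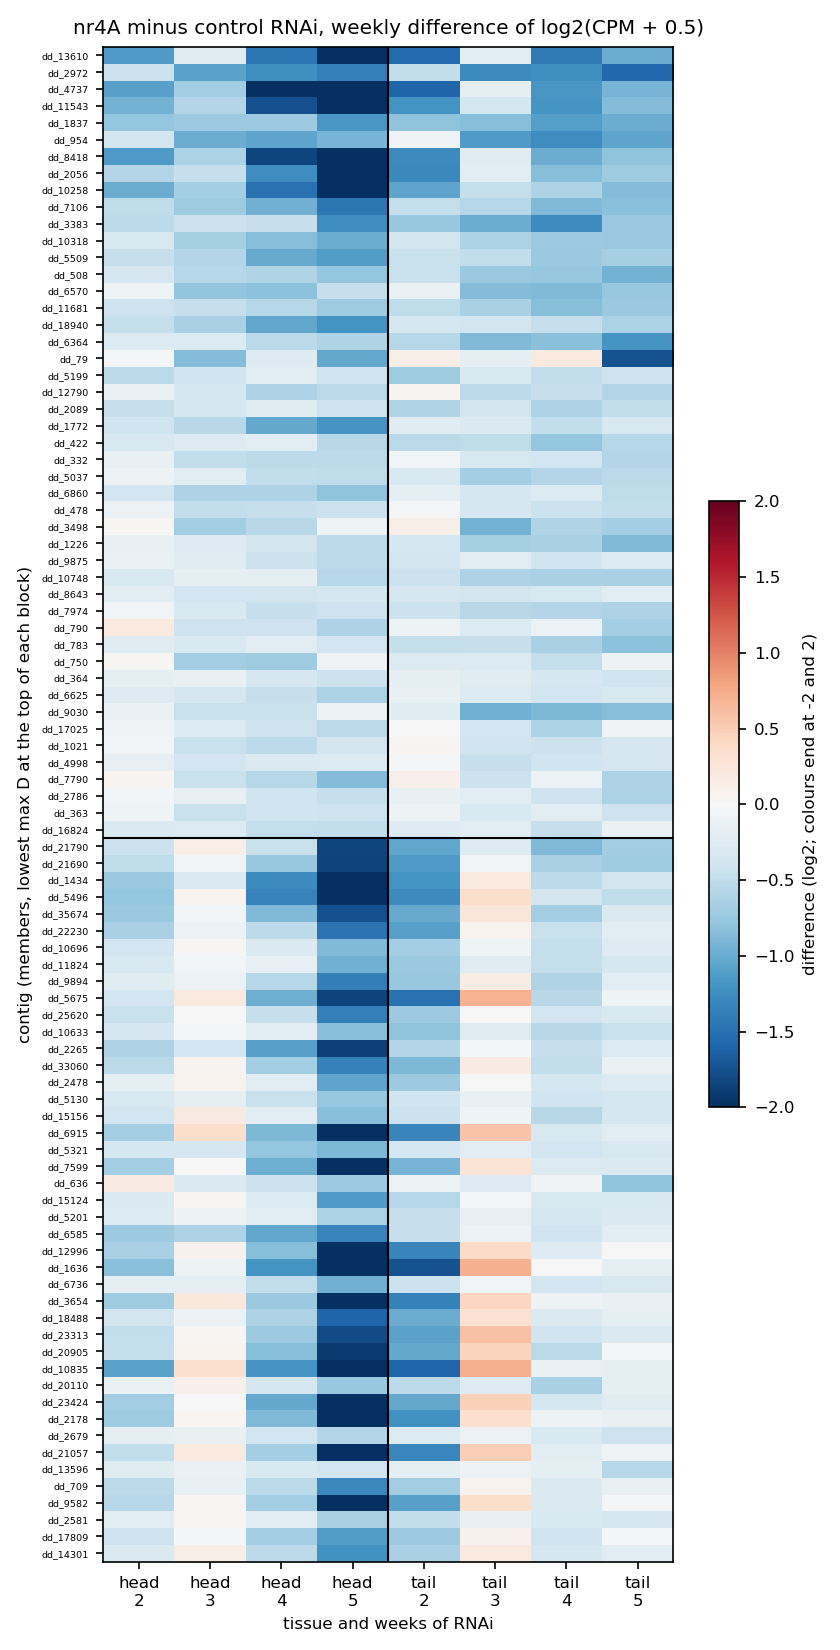
Weekly difference of *nr4A(RNAi)* minus control means of log2(CPM + 0.5) for all 90 members (rows) in head and tail by week (columns), blue for lower in *nr4A(RNAi)*; colors end at -2 and 2. The black line divides the 47 members that stayed at or below the limit without the 5 libraries (top) from the 43 others, with week 3 medians of -0.01 in the head and 0.08 in the tail.

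Week by week, the median difference of the 47 members was -0.27, -0.45, -0.53 and -0.57 in the head at weeks 2, 3, 4 and 5, and -0.36, -0.39, -0.61 and -0.64 in the tail. Among the 43 others it was -0.45, -0.01, -0.67 and -1.38 in heads, and -0.81, 0.08, -0.38 and -0.27 in tails. The week 3 libraries entered the division into 47 and 43, so nothing is read from their values. Negative differences in all 8 tissue weeks were found for 51 of the 90 members.

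**Figure D4:**
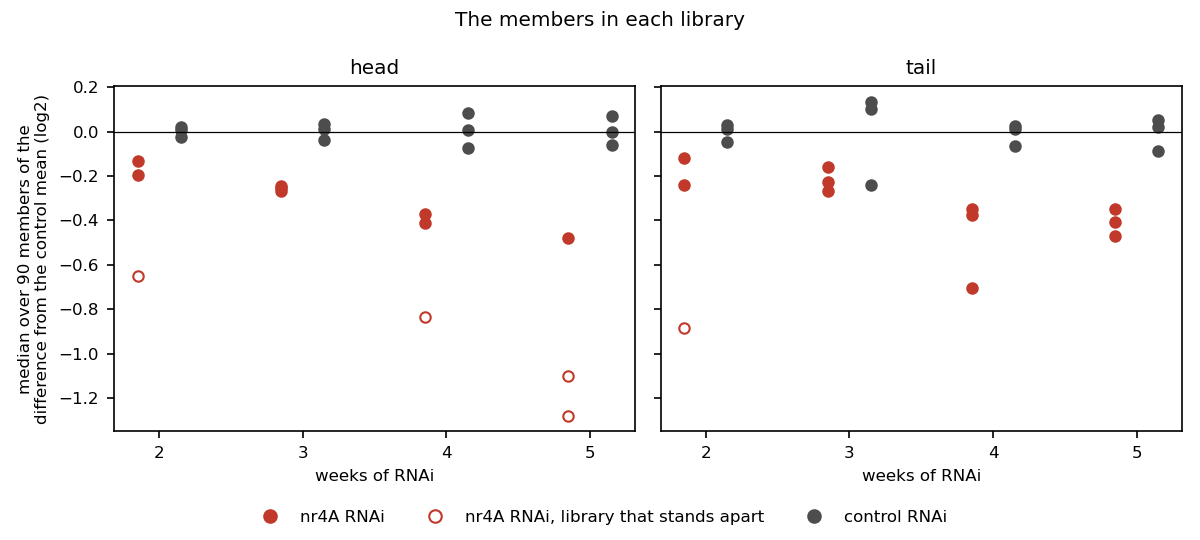
Median over the 90 members of the difference from the control mean of the same week (vertical, log2) in each library by weeks of RNAi (horizontal), head and tail; red is *nr4A* RNAi, left of grey for control RNAi. The 4 open head points lie between -1.28 and -0.65 and the open tail point at -0.88, below the other red points of their weeks.

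edgeR's test within each week (3 against 3 libraries, Benjamini-Hochberg adjustment over all contigs) called 0, 50, 2 and 0 members lower in the head at weeks 2, 3, 4 and 5, where 0%, 3.65%, 0.049% and 0.0111% of all contigs tested were called lower. In the tail it called 0, 7, 17 and 68 members lower, where 0%, 0.128%, 0.31% and 5.63% of all contigs tested were called lower. More contigs were tested than the 11860 that the members were drawn from. Over the weeks 50 members were called lower at least once in the head (3.54% of 18941 contigs) and 68 in the tail (5.46% of 19014). These are the contrasts the members were picked on, and nothing is read from the counts. edgeR called 0 members in head weeks 2 and 5 and in tail week 2. Some members were lower there at an unadjusted edgeR p below 0.05, so 0 is not read as no difference. Each of these weeks, and week 4 in the head, holds at least 1 library that stands apart. Of the 18941 contigs tested in heads, 1.55% were called higher in at least 1 week. The members dd_6915 and dd_10835 were called higher in the head at week 3, by 0.32 and 0.28 on the log2 scale. Both had D below -1 in the head with all libraries, while without the 5 libraries D head was 0.29 for dd_6915 and 0.21 for dd_10835.

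The change over the weeks is a question the choice of members did not answer. Where weekly spreads differ, a noisy week can still move both the mean and the slope. With all 24 head libraries, edgeR's test of the slope over weeks 2 to 5 found a difference that grew more negative in 5 of 90 members (adjusted p below 0.05) and a positive slope in none, where 0.26% of 19606 contigs had a negative slope past the threshold. In the tail it did so in 1 of 90 members, where 0.0357% of 19601 contigs did. Whether or not it passed, the members' slope had a median per week of -0.23 for heads and -0.05 for tails, against 0.003 and -0.004 for all 11860 contigs. These medians hold all libraries, among them the week 5 heads of *nr4A(RNAi)* replicates 1 and 2, which stand apart.

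dd_2972 passed in both tissues, with a slope of -0.31 ± 0.06 log2 per week in the head (SE, 24 libraries, edgeR adjusted p = 0.0158) and -0.36 ± 0.05 in the tail (edgeR adjusted p = 0.00517). All 3 *nr4A(RNAi)* heads of week 5 were below all 3 of week 2, and the same held in the tail. dd_18940 had the smallest adjusted p in the head, with a slope of -0.29 ± 0.04 (edgeR adjusted p = 0.00365). Under *nr4A* RNAi its heads had 9.79, 9.49 and 9.15 CPM at week 2 and 5.96, 6.63 and 6.34 CPM at week 5.

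The calcium pump dd_1772 had a slope of -0.30 ± 0.05 per week in the head (edgeR adjusted p = 0.015), the LIM domain contig dd_5037 one of -0.16 ± 0.03 (edgeR adjusted p = 0.015), and the unnamed dd_5509 one of -0.25 ± 0.04 (edgeR adjusted p = 0.00877). For dd_5037 the heads of week 2 had 101, 92.9 and 98.3 CPM under *nr4A* RNAi, against 104, 114 and 96.2 CPM in controls. The heads of week 5 had 78.9, 80.8 and 79.0 CPM under *nr4A* RNAi, against 111, 109 and 120 CPM in controls. So dd_5037 overlapped at week 2 and was separate by week 5. For dd_1772 the week 5 heads had 523, 635 and 791 CPM under *nr4A* RNAi, all below the week 2 heads with 1213, 840 and 1074 CPM.

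These calls depended on which libraries were used. Without week 5, or without week 2, no member passed in either tissue. Leaving out 1 replicate number from all weeks of a condition gave 0 to 59 members in the head and 0 to 2 in the tail. In the head 59 members passed when *nr4A(RNAi)* replicate 3 was dropped, where 14.5% of 19763 contigs had a negative slope past the threshold, 6 when *nr4A(RNAi)* replicate 2 was, and 0 when *nr4A(RNAi)* replicate 1 or any 1 of the 3 control replicates was. In the tail 2 passed when *nr4A(RNAi)* replicate 1 was dropped, 1 when control replicate 1 was, and 0 when any of the others was. Without the 4 heads that stand apart 33 of 90 members had a negative slope past the threshold, all 5 above among them, where 3.34% of 20500 contigs did. In that fit week 5 has a single *nr4A(RNAi)* head, assumed to vary like the other groups, and the slope is no longer balanced against the mean that chose the members. dd_2972 had a slope of -0.42 ± 0.04 there. Over all 14 alternatives of that head slope its edgeR adjusted p ran from 1.03e-06 to 0.42, with 8 past the threshold, and its sign stayed negative.

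**Figure D5:**
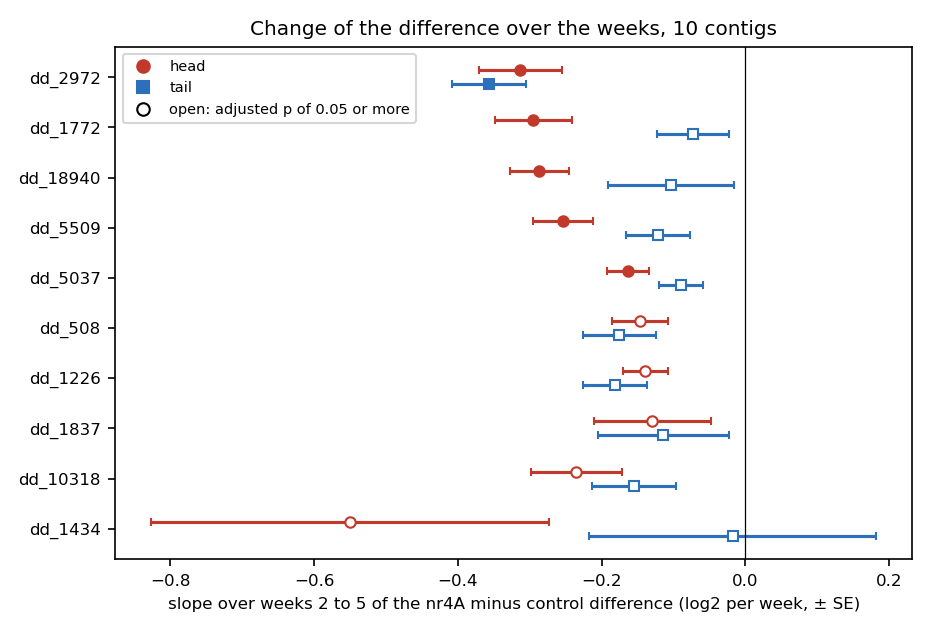
Slope over weeks 2 to 5 of the *nr4A(RNAi)* minus control difference (horizontal, log2 per week, ± SE of edgeR's fit of 24 libraries) for the 5 members past the threshold and 5 others, in head (red circles) and tail (blue squares). Filled points have an adjusted p below 0.05. Of the contigs plotted, dd_1434 has the widest error bar, 0.28 in the head.

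Slopes of heads and tails were compared within one model of all 48 libraries. edgeR called 0 of 90 members, and 0% of 20529 contigs. At an unadjusted p below 0.05 there were 6 members and 1433 contigs, and DESeq2 called 0 members. Without *nr4A(RNAi)* replicate 3, edgeR called 24 members and 5.32% of 20653 contigs. The lowest unadjusted p of the named members was that of dd_1772, with a difference of -0.21 ± 0.07 per week and an edgeR adjusted p of 0.64. So the head slopes that passed are not shown to differ from the tail slopes of the same contigs.

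Control levels of some members were themselves not flat. In control heads 7 of 90 members rose over weeks 2 to 5, where 1.37% of 19606 contigs tested did. In control tails 3 rose, where 0.372% of 19601 did. A control level that rises in late weeks can itself lower D. These counts are therefore not independent of the choice of members, and nothing is read from their excess over all contigs. No member fell in the controls past the threshold in either tissue. With control replicate 1 or control replicate 2 dropped, 0 members passed in the head, and with any 1 control replicate dropped, 1 passed in the tail. The heme enzyme contig dd_1226 rose in both, by 0.13 ± 0.02 log2 per week in the head (edgeR adjusted p = 0.00428) and 0.16 ± 0.03 in the tail (edgeR adjusted p = 0.0196). The unnamed dd_2786 also rose in both, by 0.47 ± 0.07 per week in the head (edgeR adjusted p = 0.00205) and 0.29 ± 0.05 in the tail (edgeR adjusted p = 0.0125).

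dd_508 rose by 0.14 ± 0.03 per week in control heads (edgeR adjusted p = 0.0121), which had 787, 806 and 745 CPM at week 2 and 993, 933 and 1046 CPM at week 5. dd_1837 rose by 0.31 ± 0.06 in control heads (edgeR adjusted p = 0.00734). The other control heads that passed were those of dd_790, dd_7790 and dd_2679. The steepest control rise was in the tail, for dd_79, with 0.62 ± 0.08 per week (edgeR adjusted p = 0.000302). At week 2 it had 104, 87.8 and 77.9 CPM in *nr4A(RNAi)* tails, against 77.7, 99.8 and 72.5 CPM in control tails. At week 5 *nr4A(RNAi)* tails had 74.5 to 121 CPM, against at least 230.4 CPM in control tails. Its tail differences were 0.11, -0.19 and 0.19 at weeks 2, 3 and 4 and -1.74 at week 5, so its D of -0.41 was set by week 5. The choice of dd_79 and its control rise thus rest on the same week 5 control tails, and the test of that rise is not independent of the choice.

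The members also differed in where they were expressed. The head and tail tables were counted separately, so levels are set side by side only. The control mean was more than 2 times higher in the head for 5 members and in the tail for 10. The troponin contig dd_7974 had a control mean of 214 CPM in the head and 55.9 in the tail, dd_18940 had 14.0 and 5.08, and dd_5037 had 108 and 39.9. In the other direction dd_1636 had 14.0 CPM in control heads and 336 in control tails, dd_79 had 15.5 and 148, and dd_636 had 234 and 1089.

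As for the size of the fall in each tissue, dd_10835, dd_5496 and dd_1636 had the most negative D head minus D tail, with D head of -1.31, -1.40 and -1.20 beside D tail of -0.29, -0.45 and -0.30. Without the 5 libraries their head values were 0.21, -0.13 and -0.15. dd_9030, dd_6364 and dd_1226 had the most positive, with D tail of -0.74, -0.87 and -0.64 beside D head of -0.27, -0.42 and -0.32, and their tail values without the 5 libraries were -0.81, -0.92 and -0.65.

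Lists of the study made from other samples place few members. Of contigs enriched in *nr4A*-positive muscle cells, 7 were members (7.78% of the members, and 4.61% of the 11860 contigs are on that list): dd_508, dd_1434, dd_2265, dd_1772, dd_5321, dd_15124 and the unnamed dd_2178. Of contigs enriched at the anterior pole, 4 were members (4.44%, and 1.12% of all): dd_508, dd_11681, dd_1772 and dd_5037. Of posterior pole contigs 1 was a member, dd_6736 (1.11%, and 1.17% of all).

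Medians over the muscle and pole lists were near those of all contigs. In heads, though, both pole lists held more contigs called higher than lower. Of the 18941 contigs tested in heads, 3.54% were lower and 1.55% higher in at least 1 week. Of the 19014 tested in tails, 5.46% were lower and 4.14% higher. The following counts stand against these shares. The lists hold only contigs at the rule's minimum of 5 CPM, so the bases differ. The 547 contigs of the *nr4A*-positive muscle list had a median D of 0.01 in the head and 0.01 in the tail, with 35 called lower and 9 higher in heads in at least 1 week, and 42 lower and 22 higher in the tail. The 133 anterior pole contigs had a median D of 0.08 in the head and -0.001 in the tail, with 8 lower and 20 higher in the head and 11 lower and 13 higher in the tail. The 139 posterior pole contigs had a median D of 0.02 in both tissues, with 3 lower and 10 higher in the head and 4 lower and 7 higher in the tail. Of 14 contigs whose annotated name holds a contractile protein or LIM domain, 4 were lower and 0 higher in heads, while 3 were lower and 2 higher in tails. Their median D was -0.13 for heads and -0.015 for tails, and dd_1434 and dd_5037 were members. Of 13 with collagen in the name 9 were lower in the head and 1 in the tail, none was higher, and the median D was -0.41 in the head and -0.18 in the tail. The only member among them, dd_11681, is the collagen-modifying enzyme and not a collagen. A contig with collagen in its name also met the rule but was removed by the fixed list. The members dd_9030 (*col18a1*), dd_7974 (*tnni2*) and dd_10318 (*ldb3*) have no name in that annotation, so these lists do not hold them. None of the 4 heat shock or chaperone contigs was a member by that annotation, in which dd_2265 has no name, and 0 were called in the head and 1 lower and 1 higher in the tail.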

How the data were processed

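Polyadenylated RNA of 48 libraries was sequenced by the authors (TruSeq kit; Trimmomatic 0.32 per the submitters' processing notes), mapped with Bowtie to the dd_Smed_v4 transcriptome, and deposited as raw counts of reads per contig, without normalization, in 1 table per tissue. Tables of the authors' own DESeq comparisons hold fold changes and p-values and were not used. Here the counts were summed over rows of a contig number, and the 4 head rows that are no contigs (12.4% to 18.8% of reads) were dropped. The members and lists were chosen with earlier results of these data known.

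edgeR 4.0.16 under R 4.3.3 was run on the counts with TMM factors (0.951 to 1.05 in the head, 0.912 to 1.03 in the tail) and filterByExpr (minimum count 10, minimum total 15). All 90 members passed. The quasi-likelihood test with Benjamini-Hochberg adjustment over all contigs (adjusted p below 0.05) was applied to 8 weekly fits of 6 libraries, to the slope over the 4 weeks of the difference and of the controls in 24 libraries with 8 group means, and to the difference of head and tail slopes in 48 libraries with 16 group means. Replicates are pools of animals labelled as biological replicates. The scripts were tested on simulated data.

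The text names members with a gene name, the 10 with the lowest larger D, 3 contigs on either side of the limit, per tissue the 5 most negative and 3 most positive slopes past the threshold, and the 3 largest and 3 smallest D head minus D tail. Numbers outside these, such as dd_79, dd_364, dd_636, dd_2679, dd_2786, dd_6915 and dd_9875, were named after their values were seen. Replicate numbers were checked as pairs: of 24 same-numbered pairs, 11 had deviations correlated above 0.1 (range -0.40 to 0.34). These values alone do not settle whether the numbers are pairs. The main fits did not take them as pairs, and a replicate block was run as an alternative. No 2 libraries were identical. The alternatives were RLE size factors, no filter, DESeq2 1.42.0, a replicate block, other weeks, left-out libraries and other settings of the rule. Intervals cover the spread between these pooled libraries only.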

Additional observations from a re-analysis of the deposited data

Results flagged for a closer look

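The head count table holds a row for mitochondrial RNA, which no comparison above used. It held 12.4% to 13.5% of the reads in the 12 control heads and 12.6% to 13.7% in the 8 *nr4A(RNAi)* heads that do not stand apart. In the 4 heads that do, it held 16.8% at week 2 replicate 2, 17.4% at week 4 replicate 2, 18.8% at week 5 replicate 1 and 16.8% at week 5 replicate 2. These are the heads in which the median member lay lowest in its week, and the part of this RNA in the members' values was not tested. The tail table gives no such row.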

How the results depend on the processing

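Counts of members past the threshold depended on the tool and on the libraries. For the slope of the difference in the head (5 members), DESeq2 called 15, the fit without week 5 *nr4A(RNAi)* replicates 1 and 2 called 16, the fit without the 4 heads that stand apart (chosen after seeing the data) called 33, weeks 2 to 4 alone and weeks 3 to 5 alone called 0 each, and leaving out 1 replicate gave 0 to 59. In the tail (1 member) DESeq2 called 3, week 5 minus week 2 called 2, weeks 2 to 4 and weeks 3 to 5 called 0 each, and leaving out 1 replicate gave 0 to 2. Control slopes in the head (7 members) became 12 with DESeq2 and 0 to 10 with 1 replicate left out, and in the tail (3 members) 1 to 6 with 1 replicate left out, 6 without *nr4A(RNAi)* replicate 1. Members called in at least 1 week were 52 in the head (50 lower and 2 higher), and 46 to 88 with 1 replicate left out. The 88 came without *nr4A(RNAi)* replicate 3, where the week 5 *nr4A(RNAi)* heads that remain both stand apart. In the tail 68 were called, all lower, and 27 with all 24 libraries in one fit. The share of all contigs called was not taken in the other settings, so nothing is read from these counts. The comparison of head and tail slopes (0 members) gave 24 without *nr4A(RNAi)* replicate 3, and 0 to 24 over the left-out replicates. The rule itself kept 58 of the 90 members with a minimum of 2 CPM, 47 without the 5 libraries, and 53 to 74 with 1 replicate left out (54 without control replicate 1 and 53 to 56 without any 1 *nr4A(RNAi)* replicate). With the replicate number as a block, 5 members in the head and 1 in the tail passed the slope test, and the pairing changed no other count by over 1.5 times. The 2 CPM minimum was fixed with the other alternatives, while leaving out the 5 libraries and every alternative of the head and tail slope comparison were chosen after seeing the data. The cause of these changes was not tested. The 6 slopes past the threshold kept their negative sign under all 14 alternatives of each, but 6 or 7 of the 14 were no longer past the threshold.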
